A study of Mus musculus with 9 samples.

Results

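Hepatocyte identity is held by a small group of transcription factors, and 9 of them were followed here: Hnf4a, Nr5a2, Foxa1, Foxa2, Foxa3, Cebpa, Cebpb, Prox1 and Onecut1. They were taken by name, after the Ensembl identifiers of the deposited gene tables had been matched to mouse symbols, and all 9 were found among the 41388 genes in each table.

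Livers came from male C57BL/6J mice that had all received the liver carcinogen diethylnitrosamine (DEN) by intraperitoneal injection, at 25 mg per kg and 14 days of age, and that ate a standard chow until collection at 6 months. DKO mice combined a liver-specific Mttp deletion with a germline deletion of Fabp1, MttpLKO mice had the liver-specific Mttp deletion alone, and control mice carried the floxed Mttp alleles undeleted. Mttp encodes the microsomal triglyceride transfer protein, needed to lipidate apolipoprotein B and so to form VLDL, and Fabp1 encodes the main fatty acid-binding protein of hepatocytes; the series title asks about tumours when VLDL secretion is impaired. Each genotype had 3 libraries, and each library was a pool of RNA from 3 mice, so single mice were not measured, and p-values describe the spread between pools. What drives the Mttp deletion is not given in the labels, nor is whether tumour tissue was included in the whole-liver RNA. Floxed Mttp, DEN, sex, strain and diet were common to the 3 genotypes, and no group without DEN was analysed here.

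Hepatocytes keep their character through factors that bind their own and one another's regulatory regions as well as those of liver genes for albumin, apolipoproteins, clotting factors and bile acid enzymes. Pioneer factors of the FOXA family open chromatin, and factors such as HNF4A and C/EBPα sustain expression in the mature cell. ONECUT1 (HNF6) belongs to the network from liver development onward and is also made in cholangiocytes, the cells lining bile ducts, while PROX1 is known both in hepatocytes and in lymphatic endothelium.

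Because these genes are thought to regulate one another, 3 of their promoters are shown, those of the 2 members with a match to the ONECUT motif and that of Onecut1 itself. The sequences are those of RefSeq (GRCm38.p6), run 5′ to 3′ on the strand of the gene and end just before the gene start of the deposited tables; capitals mark matches to ATTGAT or its reverse complement.
Foxa2: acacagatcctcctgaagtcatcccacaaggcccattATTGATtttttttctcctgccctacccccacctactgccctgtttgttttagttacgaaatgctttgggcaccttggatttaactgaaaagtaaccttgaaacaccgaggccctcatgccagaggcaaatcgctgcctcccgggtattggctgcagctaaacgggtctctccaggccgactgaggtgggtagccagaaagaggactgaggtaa
Hnf4a: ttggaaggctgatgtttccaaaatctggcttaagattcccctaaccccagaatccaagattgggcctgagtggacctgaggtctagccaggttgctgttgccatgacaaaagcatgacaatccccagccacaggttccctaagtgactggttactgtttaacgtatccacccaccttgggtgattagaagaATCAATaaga
Onecut1: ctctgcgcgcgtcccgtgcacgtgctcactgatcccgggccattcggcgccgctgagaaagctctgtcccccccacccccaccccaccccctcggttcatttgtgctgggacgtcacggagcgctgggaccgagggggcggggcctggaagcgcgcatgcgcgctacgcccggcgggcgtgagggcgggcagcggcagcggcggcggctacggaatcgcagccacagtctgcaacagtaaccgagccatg
The Foxa2 sequence is chr2:148046970-148047219 on the minus strand, the Hnf4a sequence is chr2:163506607-163506807 on the plus strand, and the Onecut1 sequence is chr9:74861671-74861920 on the plus strand. The Foxa2 match began at position -213 and the Hnf4a match at position -59, counted from the RefSeq start. For Foxa2 and Onecut1 that start is the one in the deposited tables, whereas for Hnf4a it lies 49 bases further downstream, past the end of the printed sequence. RefSeq lists 3 start windows for Foxa2 and 2 for Hnf4a. Those shown lie nearest to the gene starts of the deposited tables, which are the upstream ends of the gene models. The other windows of these genes were not searched. Gene counts do not tell which start was used, so the window shown for Hnf4a need not be the one active in these livers.

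Windows of 300 bases around the start were available for all 9 genes and were searched on both strands for 6 short motifs. ATTGAT (ONECUT) was in 2 of the 9 members' windows, against 7.54% of 32851 RefSeq windows. TGTTTAC (FOXA) was in 1 of the 9, that of Foxa1 at position -141, against 3.65% of windows, and GTTAATNAT (HNF1) was in 1, that of Nr5a2 at position -236, against 0.801%. TTGCNNAA (C/EBP), CAAAGTCCA (HNF4A) and CAAGGTCA (NR5A2) had no match in any of the 9, with shares of 10.8%, 0.475% and 1.56% over all windows. A match shows that the letters are present and not that a factor is bound there. The windows of Cebpb, Onecut1, Foxa3 and Cebpa were rich in GC, at 80.7%, 73.0%, 69.0% and 67.3%, and that of Nr5a2 was the poorest of the 9, at 42.0%.

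Libraries held 23268389 to 23429588 counts in DKO, 26362408 to 27918197 in MttpLKO and 24995426 to 27080442 in control livers. The deleted genes followed the labels: Mttp was at 3.24 to 5.79 CPM in DKO pools, 6.14 to 9.78 CPM in MttpLKO pools and 69.4 to 180.8 CPM in control pools, and Fabp1 at 50.3 to 78.0 CPM in DKO pools, against 3379 to 4984 CPM in MttpLKO and 6060 to 6845 CPM in control pools. CPM is the share of a library's counts that fall on a gene, here on library sizes scaled by TMM. Mttp differed among control pools, at 180.8 CPM in replicate 1 against 79.9 and 69.4 CPM in replicates 2 and 3. On the first principal component (22.3% of the variance) MttpLKO replicate 3 stood apart, at 53.7, with the other 8 libraries between -17.4 and 9.62. On the second, DKO replicate 3 was at -42, with the other 8 between -22.1 and 23.7. In MttpLKO replicate 3 the summed level of 7 B and plasma cell genes was 338 CPM. It was 12.7 and 20.8 CPM in the other MttpLKO pools, 13.5 to 22.9 CPM in DKO pools and 13.2 to 20.6 CPM in control pools. All 13 hepatocyte markers passed the filter on low counts, with sums of 81128 to 115672 CPM in DKO, 113780 to 122161 CPM in MttpLKO and 103393 to 119059 CPM in control livers.

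The factors spanned a wide range of abundance, compared here per length of transcript as RPKM, which is CPM per kilobase of gene model. Cebpa was the highest, at 206 ± 28.9 RPKM over the 9 libraries (mean ± SD), followed by Cebpb at 190 ± 42.5 RPKM and Hnf4a at 144 ± 15.7 RPKM. Foxa3 averaged 48.8 ± 11.4 RPKM, Foxa2 18.2 ± 4.83 RPKM, Prox1 10.8 ± 2.29 RPKM and Foxa1 8.68 ± 2.29 RPKM. Onecut1 averaged 6.80 ± 4.88 RPKM and Nr5a2 5.57 ± 1.01 RPKM. The 3 most abundant factors made up 79.4% to 87.1% of the summed RPKM of the 9 genes in each library.

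Neighbours in this order were separated to different degrees. Hnf4a exceeded Foxa3, and Foxa3 exceeded Foxa2, in 9 of 9 libraries with no overlap of their ranges over the libraries. Cebpb also exceeded Hnf4a, and Foxa2 exceeded Prox1, in every library, although those ranges overlapped. The remaining neighbours changed places between libraries: Cebpa was above Cebpb in 6 of 9 libraries, Prox1 above Foxa1 in 6, Foxa1 above Onecut1 in 7 and Onecut1 above Nr5a2 in 5. Within the FOXA family Foxa3 held 59.5% to 73.8% of the summed RPKM, Foxa2 18.8% to 27.9% and Foxa1 7.40% to 13.6%.

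No factor passed the test between genotypes. All 9 factors were among the 14741 genes kept by the filter on low counts. In edgeR's quasi-likelihood F test with Benjamini-Hochberg adjustment, 0 of the 9 were called at an adjusted p under 0.05 in DKO vs MttpLKO, where 0.4% of all genes tested were called, 0 in DKO vs control, where 0.332% were called, and 0 in MttpLKO vs control, where 0.346% were called. The joint test of the 3 genotypes called 0 of the 9 and 0.678% of all genes. At an unadjusted p under 0.05 the count of members was also 0 in each comparison, beside 9.1% of all genes tested in DKO vs MttpLKO, 11.2% in DKO vs control and 6.97% in MttpLKO vs control, and DESeq2 and limma-voom called 0 as well. With so few calls over all genes, 9 genes without a call do not set the factors apart from other genes. The comparisons share libraries in pairs, so a high or low genotype enters more than 1 of them.

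**Figure D1:**
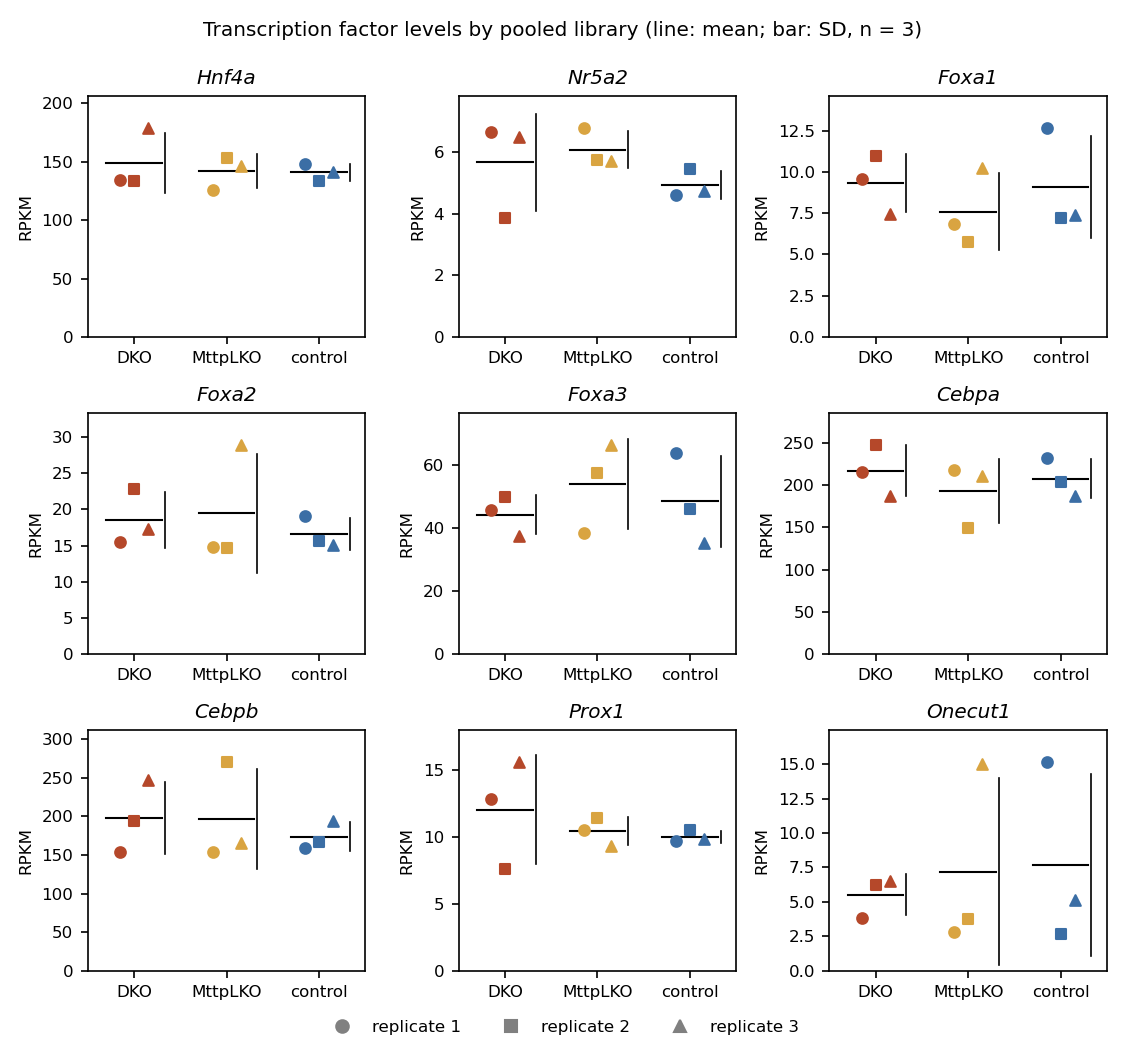
Level of each factor (RPKM) in the 9 pooled libraries, with DKO, MttpLKO and control from left to right; points are libraries, horizontal lines are group means and vertical bars are SD (n = 3). The 3 groups overlap for every factor except Nr5a2, whose 3 MttpLKO pools (5.72 to 6.80 RPKM) lie above the 3 control pools (4.63 to 5.45 RPKM), and Onecut1 is high in 1 control and 1 MttpLKO pool.

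**Figure D2:**
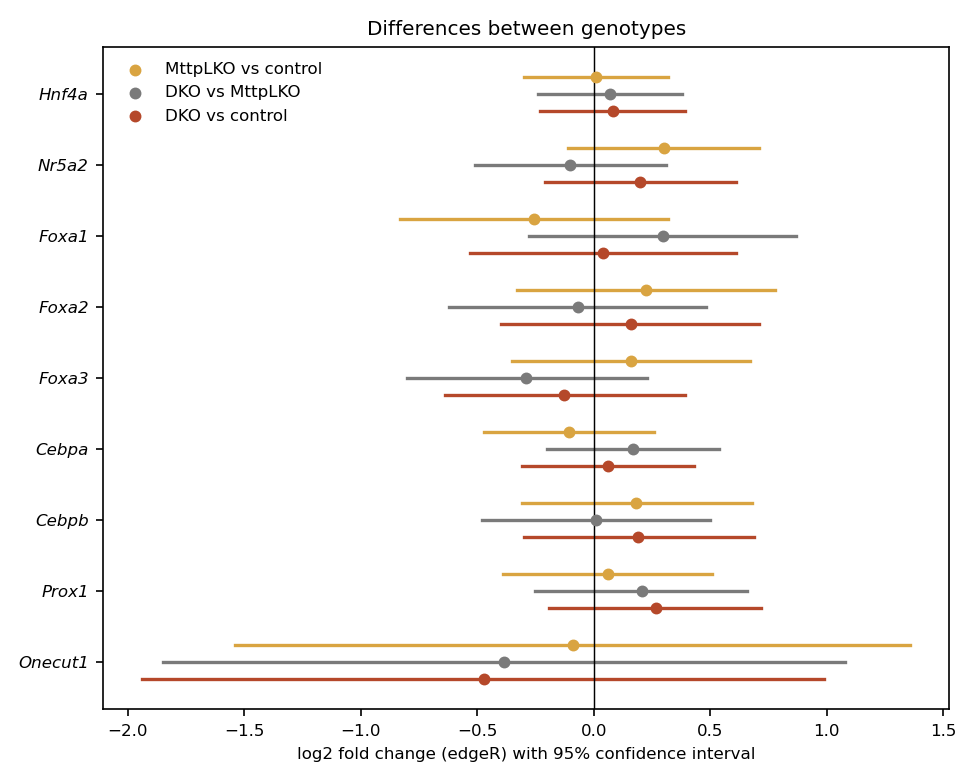
Log2 fold change of each factor (horizontal axis; edgeR, 9 libraries) with its 95% confidence interval for the 3 comparisons. Every interval includes 0; the intervals of Hnf4a are the narrowest and those of Onecut1 the widest.

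Hnf4a, the nuclear receptor at the centre of the adult hepatocyte programme, was the most even of the factors across genotypes. It was at 648, 646 and 865 CPM in the 3 DKO pools, 608, 742 and 706 CPM in the MttpLKO pools and 715, 645 and 681 CPM in the control pools. Only DKO replicate 3 lay above the values of the other genotypes. The log2 fold change was 0.07 in DKO vs MttpLKO (95% confidence interval -0.24 to 0.38), 0.08 in DKO vs control (-0.23 to 0.39) and 0.01 in MttpLKO vs control (-0.30 to 0.32). On a linear scale those intervals reach from 0.813-fold to 1.31-fold. An antisense gene, Hnf4aos, overlaps Hnf4a and was at 8.28 to 13.8 CPM in DKO, 6.41 to 20.1 CPM in MttpLKO and 11.2 to 17.2 CPM in control pools; without a stated strand setting, reads from the shared stretch cannot be assigned, and its level was a small part of the Hnf4a level.

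Nr5a2 (LRH-1), a nuclear receptor that acts on genes of bile acid and cholesterol handling, was the factor with the smallest p in any comparison. It was at 25.6, 14.8 and 25.0 CPM in DKO pools, 26.1, 22.1 and 21.9 CPM in MttpLKO pools and 17.8, 20.9 and 18.2 CPM in control pools. The MttpLKO and control values did not overlap, while DKO held 2 values near the top and the lowest of all 9. In MttpLKO vs control the log2 fold change was 0.30 ± 0.19 (SE; 1.23-fold, 95% confidence interval 0.926 to 1.64), with an adjusted p of 0.867 in edgeR's quasi-likelihood test. It was 0.20 in DKO vs control (-0.21 to 0.61) and -0.10 in DKO vs MttpLKO (-0.51 to 0.31). Nr5a2 was the 1 of 9 factors whose MttpLKO and control libraries did not overlap, beside 14.3% of all genes tested. In DKO vs MttpLKO and in DKO vs control 0 of the 9 were free of overlap, beside 11.5% and 18.1% of all genes.

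The 3 FOXA factors, which bind closed chromatin at liver enhancers, differed less between genotypes, by at most 0.30 on the log2 scale, than the SD between pools of 1 genotype, which was 0.36 to 0.39. Foxa1 was at 30.5, 35.1 and 23.8 CPM in DKO pools, 21.8, 18.3 and 32.6 CPM in MttpLKO pools and 40.4, 23.0 and 23.6 CPM in control pools. Foxa2, which in mouse liver is also known for its place in fasting metabolism and bile acid homeostasis, was at 36.7, 54.2 and 41.0 CPM in DKO pools, 35.0, 34.7 and 68.6 CPM in MttpLKO pools and 45.4, 37.2 and 35.6 CPM in control pools. The highest Foxa1 value was therefore in control replicate 1 and the highest Foxa2 value in MttpLKO replicate 3. Foxa3, the most abundant FOXA gene here, was at 92.7, 101.2 and 76.2 CPM in DKO pools, 78.1, 117 and 135 CPM in MttpLKO pools and 130.1, 93.6 and 71.8 CPM in control pools. It overlapped across the 3 genotypes. For Foxa1 the log2 fold change was 0.30 in DKO vs MttpLKO (-0.28 to 0.87), 0.04 in DKO vs control (-0.53 to 0.61) and -0.26 in MttpLKO vs control (-0.83 to 0.32). Those of Foxa2 were -0.07 (-0.62 to 0.48), 0.16 (-0.40 to 0.71) and 0.23 (-0.33 to 0.78) in the same order of comparisons, and those of Foxa3 were -0.29 (-0.80 to 0.23), -0.13 (-0.64 to 0.39) and 0.16 (-0.35 to 0.67). For each of the 3 genes 1 pool could turn the sign in MttpLKO vs control: Foxa1 was at 0.06 without control replicate 1, Foxa2 at -0.18 without MttpLKO replicate 3, and Foxa3 at -0.03 without control replicate 3 and -0.02 without MttpLKO replicate 3.

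C/EBPα and C/EBPβ are related leucine zipper factors, the first tied to the resting, metabolic hepatocyte and the second to the acute phase and to regrowth. Cebpa was at 569, 652 and 493 CPM in DKO pools, 575, 393 and 556 CPM in MttpLKO pools and 613, 537 and 492 CPM in control pools. Cebpb was at 232, 292 and 372 CPM in DKO pools, 232, 407 and 249 CPM in MttpLKO pools and 239, 252 and 293 CPM in control pools. MttpLKO replicate 2 had both the lowest Cebpa and the highest Cebpb of the 9 libraries, and DKO replicate 3 had the next highest Cebpb. The log2 fold changes of Cebpa were 0.17 in DKO vs MttpLKO (-0.20 to 0.54), 0.06 in DKO vs control (-0.31 to 0.43) and -0.11 in MttpLKO vs control (-0.47 to 0.26). Cebpb gave 0.01 (-0.48 to 0.50), 0.19 (-0.30 to 0.69) and 0.18 (-0.31 to 0.68) in the same comparisons.

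The balance of the 2 factors is a single value per library. On the RPKM scale the ratio of Cebpb to Cebpa was 0.713, 0.782 and 1.32 in DKO pools, 0.706, 1.81 and 0.785 in MttpLKO pools and 0.683, 0.820 and 1.04 in control pools. Cebpb exceeded Cebpa in 1 pool of each genotype. On the log2 CPM scale the mean ratio was -0.96 ± 0.48 in DKO, -0.81 ± 0.75 in MttpLKO and -1.07 ± 0.31 in control livers (SD, n = 3 each). The differences were -0.15 in DKO vs MttpLKO, 0.11 in DKO vs control and 0.26 in MttpLKO vs control, each with p = 0.8 in a two-sided exact permutation test, whose smallest possible p with 3 against 3 libraries is 0.1. Each of the 3 differences changed sign when 1 pool was left out; that of MttpLKO vs control was -0.17 without MttpLKO replicate 2. The summed level of 7 macrophage markers was 35.5 CPM in MttpLKO replicate 2 and 47.6 CPM in DKO replicate 3, the 2 pools with the highest Cebpb. Over the groups it ran from 47.6 to 104 CPM in DKO, 28.5 to 82.7 CPM in MttpLKO and 72.1 to 94.5 CPM in control pools. The part of those cells in the ratio was not tested. In bulk liver RNA, fewer cells of a type and less RNA per cell cannot be told apart.

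Prox1, a homeobox factor known as a corepressor of HNF4A and NR5A2, was most variable in DKO livers. It was at 107, 63.6 and 130.2 CPM in DKO pools, 87.8, 95.2 and 78.0 CPM in MttpLKO pools and 81.1, 87.5 and 81.9 CPM in control pools. DKO held the 2 highest values and the lowest, with an SD of 33.8 CPM, against 8.63 CPM in MttpLKO and 3.49 CPM in control pools. The log2 fold change was 0.21 in DKO vs MttpLKO (-0.25 to 0.66), 0.27 in DKO vs control (-0.19 to 0.72) and 0.06 in MttpLKO vs control (-0.39 to 0.51). Of the 4 lymphatic endothelial markers, Pdpn and Ccl21a were at 0 in all 9 libraries. Flt4 was at 27.4 to 38.6 CPM in DKO, 20.7 to 29.2 CPM in MttpLKO and 26.2 to 37.0 CPM in control pools, and Mmrn1 at 0.161 to 0.717 CPM in DKO, 0.259 to 0.535 CPM in MttpLKO and 0.121 to 0.414 CPM in control pools. Flt4 was highest in DKO replicate 2, the pool with the lowest Prox1. Among DKO pools the summed level of 6 sinusoidal endothelial genes was also highest there, at 276 CPM. Bulk RNA does not tell which endothelial cells the Flt4 reads came from. The part of endothelial cells in the Prox1 values was not tested. The antisense gene Prox1os overlaps the start of Prox1 and was at 5.65 to 10.3 CPM in DKO, 9.01 to 11.1 CPM in MttpLKO and 9.82 to 11.1 CPM in control pools.

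Onecut1 differed most between pools that carry the same label. It was at 15.7, 25.6 and 26.8 CPM in DKO pools, 11.6, 15.6 and 61.7 CPM in MttpLKO pools and 62.4, 11.1 and 21.1 CPM in control pools. The highest and lowest control pools differed 5.6-fold and the highest and lowest MttpLKO pools 5.31-fold, whereas the DKO pools differed 1.7-fold. The raw counts behind the extremes were 1543 in control replicate 1 and 1664 in MttpLKO replicate 3, against 296 in control replicate 2 and 304 in MttpLKO replicate 1. The log2 fold change was -0.38 in DKO vs MttpLKO (-1.85 to 1.08), -0.47 in DKO vs control (-1.94 to 0.99) and -0.09 in MttpLKO vs control (-1.54 to 1.36), intervals that reach from 0.261-fold to 2.57-fold. Without MttpLKO replicate 3 the value in MttpLKO vs control was -1.22 and without control replicate 1 it was 0.88.

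Markers of other cells were set beside the 2 pools high in Onecut1. The summed level of 6 cholangiocyte genes, of which Cftr did not pass the filter and was at or near 0, was 75.5 to 102 CPM in DKO, 83.5 to 139.8 CPM in MttpLKO and 63.0 to 70.7 CPM in control pools. MttpLKO replicate 3 had the highest sum, at 139.8 CPM, while control replicate 1, with the highest Onecut1, had 69.3 CPM, between the other control pools. Most of each sum was Spp1, at 109 CPM in MttpLKO replicate 3 and 51.9 CPM in control replicate 1, so the sums mainly follow that gene. Among control pools, replicate 1 had the highest Krt19 (4.65 CPM) and Epcam (2.63 CPM). It had the lowest Krt7 (2.38 CPM) and Sox9 (7.68 CPM). Of these genes 0 were called by edgeR in any comparison, and at an unadjusted p under 0.05 there were 1 in DKO vs MttpLKO, 1 in DKO vs control and 2 in MttpLKO vs control, of 5 tested, beside 9.1%, 11.2% and 6.97% of all genes. In that MttpLKO pool the 8 stellate and fibroblast genes were also at their highest, at 355 CPM, against 197 CPM in control replicate 1. Their part in the Onecut1 values was not tested.

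The spread between pools was set against that of other genes. The SD of log2 CPM between pools of 1 genotype was 1.05 for Onecut1, and 99.8% of the 2649 tested genes within 1.5-fold of its mean level had a lower SD, with a median of 0.155. Foxa2, at 0.38, exceeded 95.6% of genes of similar level, Foxa1, at 0.39, exceeded 94.8%, and Foxa3, at 0.36, exceeded 94.6%. Prox1, at 0.32, exceeded 92.2%, Cebpb, at 0.33, exceeded 91.6%, Nr5a2, at 0.27, exceeded 86% and Cebpa, at 0.23, exceeded 73.3%. Hnf4a was the exception, with an SD of 0.17 and 46.9% of 145 genes of similar level below it. These percentages describe these 9 libraries and carry no test.

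**Figure D3:**
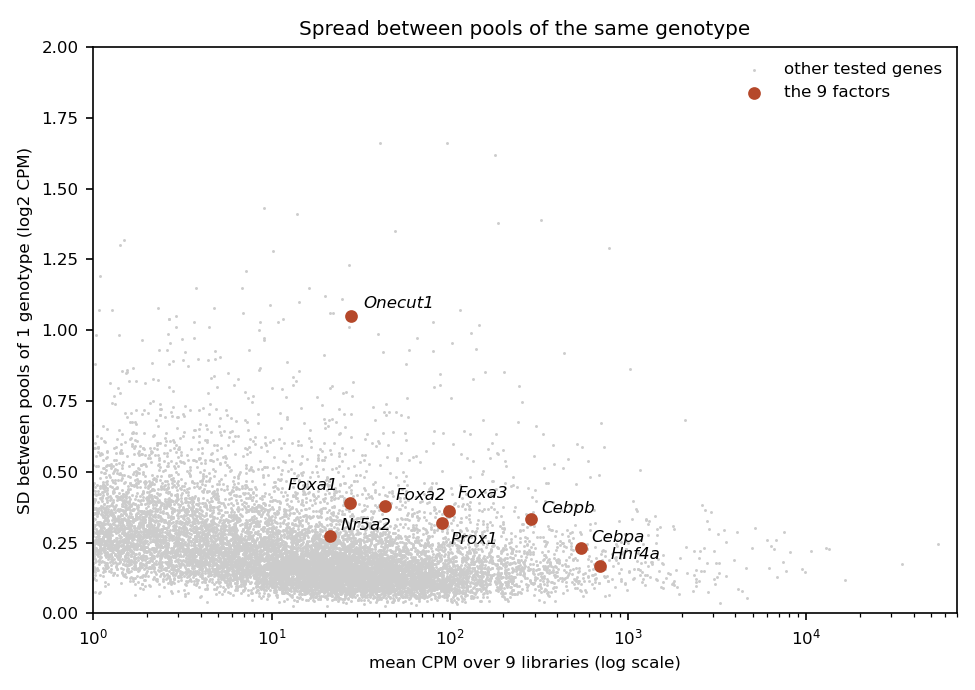
SD of log2 CPM between pools of the same genotype (vertical axis) against mean CPM over the 9 libraries (horizontal axis, log scale) for tested genes in grey and the 9 factors in red. Onecut1 lies at an SD of 1.05 and Hnf4a at 0.17; the other 7 factors lie between 0.23 and 0.39.

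Whether the factors varied together from pool to pool was examined next. Pearson correlations of log2 CPM over the 9 libraries were computed for all 36 pairs, each with an exact permutation test over 362880 pairings. Of these, 7 had an unadjusted p under 0.05 and 0 had an adjusted p under 0.05 after Benjamini-Hochberg adjustment over the 36 pairs. The strongest was Foxa1 with Cebpa, with r = 0.80 (exact permutation p = 0.00714, adjusted p = 0.156; Spearman rho = 0.67, p = 0.0589) and r = 0.69 without the 2 libraries farthest from the median of Foxa1. Nr5a2 with Prox1 gave r = 0.78 (exact permutation p = 0.0115, adjusted p = 0.156; rho = 0.78, p = 0.0172), 0.58 without the 2 libraries farthest in Nr5a2 and 0.88 for deviations from the genotype means. DKO replicate 2 was the lowest of the 9 libraries for each of that pair.

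Onecut1 had positive correlations with the FOXA genes, none of which passed the adjustment. With Foxa2 it gave r = 0.78 (exact permutation p = 0.0168, adjusted p = 0.156; rho = 0.72, p = 0.0369), and r stayed at 0.64 without the 2 pools in which Onecut1 was high. With Foxa1 it gave r = 0.73 (exact permutation p = 0.0247, adjusted p = 0.178; rho = 0.82, p = 0.0108), and 0.45 without those 2 pools. With Foxa3 it gave r = 0.61 (exact permutation p = 0.0843, adjusted p = 0.337; rho = 0.37, p = 0.336), which turned to -0.17 without those 2 pools, so that it rests on them. Foxa1 with Foxa2 gave r = 0.68 (exact permutation p = 0.0382, adjusted p = 0.197; rho = 0.85, p = 0.00607). Foxa1 with Foxa3 gave r = 0.49 (exact permutation p = 0.174, adjusted p = 0.426), and 0.01 without control replicate 1 and MttpLKO replicate 3. Foxa2 with Foxa3 gave r = 0.61 (exact permutation p = 0.0797, adjusted p = 0.337), and 0.19 without the same pools. The printed windows of Foxa2 and Hnf4a hold the ONECUT letters, and the window of Foxa1 does not. For Hnf4a only the upstream of its 2 start windows was searched, and which start these livers used is not known. Hnf4a with Onecut1 gave r = 0.41 (exact permutation p = 0.28, adjusted p = 0.523). Whether ONECUT1 acts on any of these genes was not tested.

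Cebpa with Cebpb had the only negative correlation among the 7 pairs, with r = -0.75 (exact permutation p = 0.0173, adjusted p = 0.156; rho = -0.67, p = 0.0589). Without MttpLKO replicate 2 and DKO replicate 2, the pools farthest from the median of Cebpa, r was -0.83, and without MttpLKO replicate 2 and DKO replicate 3, the pools high in Cebpb, it was -0.11, so the relation did not hold without that second pair of pools. Hnf4a with Cebpb gave r = 0.71 (exact permutation p = 0.0316, adjusted p = 0.19; rho = 0.55, p = 0.133), and 0.14 without the same 2 pools. Hnf4a with the 3 FOXA genes gave r of -0.10, 0.10 and 0.06 for Foxa1, Foxa2 and Foxa3.

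**Figure D4:**
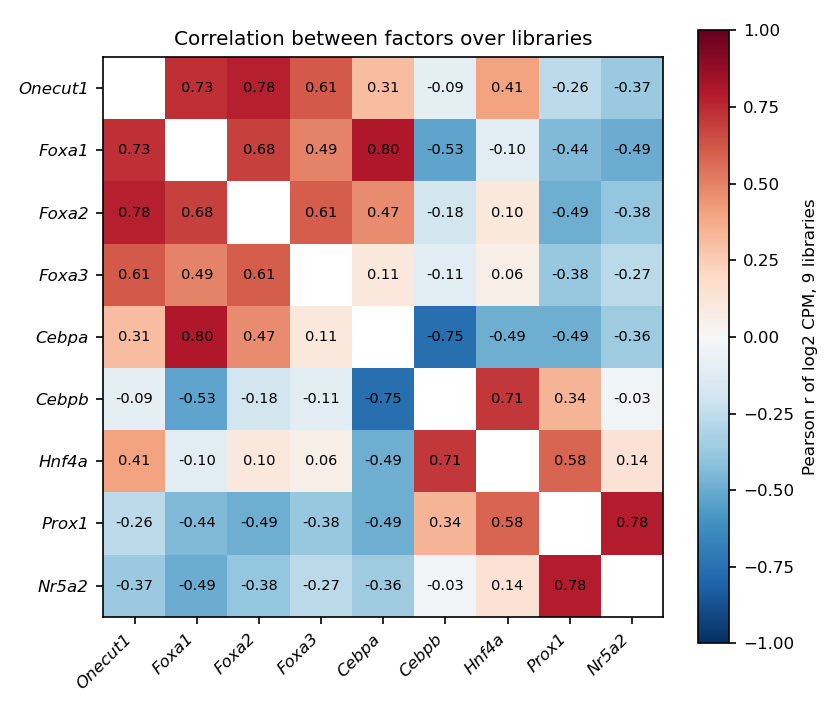
Pearson r of log2 CPM over the 9 libraries for each pair of factors (colour and printed value). Onecut1, Foxa1, Foxa2 and Foxa3 have positive values with one another. Those of Foxa3 with Onecut1 (-0.17) and with Foxa1 (0.01) do not hold without control replicate 1 and MttpLKO replicate 3. That of Foxa3 with Foxa2 falls from 0.61 to 0.19 without these pools. Nr5a2 and Prox1 share a positive value (0.78), and Cebpa with Cebpb has the lowest value (-0.75).

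**Figure D5:**
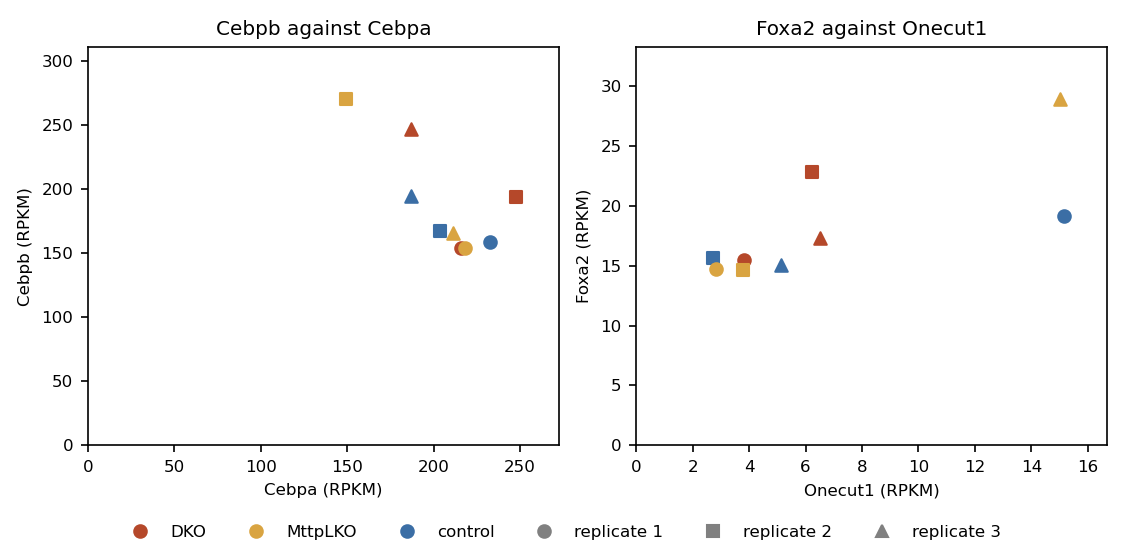
Cebpb against Cebpa (left) and Foxa2 against Onecut1 (right), both in RPKM, for the 9 libraries coloured by genotype and shaped by replicate number. On the left MttpLKO replicate 2 and DKO replicate 3 are the points highest in Cebpb; on the right MttpLKO replicate 3 and control replicate 1 are the points highest in Onecut1.

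Genes most like each factor were looked up by Pearson r of log2 CPM over the 9 libraries, among 9363 genes with a mean of at least 5 CPM, as a description of these libraries. Hnf4a was closest to Kdm5c (r = 0.98) and Ccdc186 (0.96), Nr5a2 to Ecpas (0.95) and Etl4 (0.95), and Prox1 to E030018B13Rik (0.97) and Hnrnph2 (0.97). Foxa1 was closest to Tgfb1 (0.94) and B4galt5 (0.91), Foxa2 to Ifngr1 (0.93) and Pofut2 (0.92), and Foxa3 to Tlnrd1 (0.92) and Bet1l (0.92). Cebpa was closest to Bcar1 (0.93) and Copz1 (0.92), Cebpb to Foxo1 (0.97), itself a hepatocyte transcription factor that responds to insulin, and Nucks1 (0.96), and Onecut1 to B4galt1 (0.93) and Serpina4-ps1 (0.93). These values carry no test.

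Other transcription factors of the hepatocyte network were counted in the same fit. Of 26 such genes 25 were tested and 0 were called in each comparison by edgeR's quasi-likelihood test; at an unadjusted p under 0.05 there were 5 in DKO vs MttpLKO, 1 in DKO vs control and 1 in MttpLKO vs control, beside 9.1%, 11.2% and 6.97% of all genes tested. The smallest joint p was that of Nr0b2 (SHP), the bile acid-induced corepressor that acts on NR5A2 and HNF4A. It averaged 64.5 ± 9.18 CPM in DKO, 45.5 ± 18.1 CPM in MttpLKO and 84.2 ± 6.17 CPM in control livers (SD, n = 3 each), with an adjusted p of 0.345 in edgeR's joint test. Next was Zhx2, a repressor of fetal liver genes, at 23.6 ± 2.25 CPM in DKO, 18.9 ± 2.77 CPM in MttpLKO and 17.2 ± 3.08 CPM in control livers (adjusted p = 0.437, edgeR).

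Known targets of the factors were counted next, in lists that share members and were chosen with earlier results of these data known. Their counts beside those of all genes are therefore a description and carry no test. Of all genes tested edgeR called 0.4% in DKO vs MttpLKO, 0.332% in DKO vs control and 0.346% in MttpLKO vs control. None of 21 HNF4A targets, 9 FOXA targets and 13 NR5A2 targets was called in any comparison; at an unadjusted p under 0.05 the HNF4A targets numbered 3 in DKO vs MttpLKO, 4 in DKO vs control and 1 in MttpLKO vs control, the FOXA targets 2, 2 and 0, and the NR5A2 targets 2, 0 and 3, beside 9.1%, 11.2% and 6.97% of all genes. Ttr, the thyroid hormone carrier transthyretin and a target of both HNF4A and FOXA factors, averaged 7814 ± 1359 CPM in DKO, 10022 ± 358 CPM in MttpLKO and 11651 ± 336 CPM in control livers, with an adjusted p of 0.149 in DKO vs control (edgeR). Apoc2, the activator of lipoprotein lipase, averaged 504 ± 70.5 CPM in DKO, 336 ± 85.5 CPM in MttpLKO and 360 ± 38.5 CPM in control livers, with an adjusted p of 0.316 in DKO vs MttpLKO (edgeR). Medians of the log2 fold change in DKO vs MttpLKO were -0.20 for HNF4A targets, -0.36 for FOXA targets and -0.06 for NR5A2 targets, beside -0.02 over all genes tested; in DKO vs control they were 0.05, -0.02 and -0.11, beside -0.0019, and in MttpLKO vs control 0.02, 0.12 and 0.03, beside 0.01.

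Of 8 C/EBPα targets 1 fell, in DKO vs MttpLKO: Hamp, which encodes the iron hormone hepcidin. Hamp was at 1078, 901 and 1015 CPM in DKO pools, 1459, 2519 and 2667 CPM in MttpLKO pools and 1011, 1139 and 1217 CPM in control pools, with a log2 fold change of -1.15 ± 0.20 (SE; adjusted p = 0.0414, edgeR). MttpLKO stood above both other genotypes without overlap. Of all genes tested 11.5% were free of overlap in DKO vs MttpLKO and 14.3% in MttpLKO vs control. Of the 8 targets 2 had an unadjusted p under 0.05 in DKO vs MttpLKO, beside 9.1% of all genes. All 8 had a negative value there, with a median of -0.33, while 46.9% of all genes had a positive one; the medians were -0.015 in DKO vs control and 0.31 in MttpLKO vs control. In these 2 comparisons edgeR called 0 of the 8, and 0 and 1 had an unadjusted p under 0.05, beside 11.2% and 6.97% of all genes. Cebpa itself had a log2 fold change of 0.17 in DKO vs MttpLKO.

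Of 11 acute phase genes tied to C/EBPβ 1 rose, in DKO vs control: Lcn2, which encodes the iron-sequestering protein lipocalin-2. Lcn2 was at 93.4, 80.7 and 146 CPM in DKO pools, 23.1, 56.8 and 64.5 CPM in MttpLKO pools and 8.13, 16.3 and 18.7 CPM in control pools, with a log2 fold change of 2.89 ± 0.41 (SE; adjusted p = 0.0137, edgeR). The 3 genotypes did not overlap. Of all genes tested 11.5% were free of overlap in DKO vs MttpLKO, 18.1% in DKO vs control and 14.3% in MttpLKO vs control. All 11 genes had a positive value in DKO vs control, as did 49.6% of all genes. Of the 11, 4 had an unadjusted p under 0.05, beside 11.2% of all genes. These 4 were Lcn2, Saa1, Saa2 and Orm2. In DKO replicates 1, 2 and 3 Saa1 was at 531, 46.0 and 739 CPM, with a control mean of 57.5 CPM. Saa2 was at 251, 12.3 and 473 CPM there (control mean 21.6 CPM), and Orm2 at 51.5, 11.9 and 64.6 CPM (17.3 CPM). In DKO replicate 2 only Lcn2, Crp and Fgb of the 11 lay above their control means. The median of the 11 genes was 0.31 in DKO vs control, and the medians were 0.54 in DKO vs MttpLKO and 0.15 in MttpLKO vs control. In these 2 comparisons edgeR called 0 of the 11, and 6 and 2 had an unadjusted p under 0.05, beside 9.1% and 6.97% of all genes. Cebpb had a log2 fold change of 0.19 in DKO vs control.

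Of 13 genes of fetal liver and liver tumours 11 were tested, and Lin28b and Dlk1 were at 0 in all pools. The list was chosen with earlier results of these data known, so its counts beside those of all genes are a description and carry no test. Akr1c18, a steroid dehydrogenase, was at 22.8, 28.4 and 27.0 CPM in DKO pools, 4.24, 7.72 and 29.4 CPM in MttpLKO pools and 0.768, 0.940 and 1.56 CPM in control pools. It rose in DKO vs control (log2 fold change 4.57 ± 0.66, SE; adjusted p = 0.0153, edgeR) and in MttpLKO vs control (3.65 ± 0.65; adjusted p = 0.0479, edgeR). Gpc3, a cell-surface proteoglycan of fetal liver and hepatocellular carcinoma, was at 11.9, 10.8 and 9.27 CPM in DKO pools, 4.47, 6.87 and 12.5 CPM in MttpLKO pools and 2.18, 3.31 and 2.97 CPM in control pools, and rose in DKO vs control (1.91 ± 0.33; adjusted p = 0.0423, edgeR). In DKO vs MttpLKO edgeR called 0 of the 11, beside 0.4% of all genes tested. It called 2 of the 11 in DKO vs control and 1 in MttpLKO vs control, beside 0.332% and 0.346% of all genes. At an unadjusted p under 0.05 there were 4 of the 11 in DKO vs MttpLKO, 5 in DKO vs control and 6 in MttpLKO vs control, beside 9.1%, 11.2% and 6.97% of all genes. The median log2 fold change of the list was 0.42 in DKO vs MttpLKO, 0.85 in DKO vs control and 0.72 in MttpLKO vs control. The MttpLKO pool with the highest Akr1c18 and Gpc3 was replicate 3, which also had the highest Foxa2 and the highest Onecut1 of its genotype.

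Among the lists of cell type markers, which cover hepatocytes, cholangiocytes, lymphatic and sinusoidal endothelium, macrophages, neutrophils, stellate cells and fibroblasts, B and plasma cells, T and NK cells and proliferation, edgeR called 0 genes in each comparison, and 0 to 5 genes of a list had an unadjusted p under 0.05, from lists of 2 to 13 tested genes. The count of 5 was that of the 13 hepatocyte genes in DKO vs MttpLKO. There 9 of the 13 were negative, with a median log2 fold change of -0.26. The hepatocyte median was -0.01 in DKO vs control and 0.17 in MttpLKO vs control, with 1 gene at that threshold in each. The 7 macrophage genes had a median of 0.97 in DKO vs MttpLKO, with 7 of 7 positive and 3 at an unadjusted p under 0.05. In MttpLKO vs control their median was -0.74, with 6 of 7 negative and 2 at that threshold. The 3 neutrophil genes tested had a median of -1.72 in MttpLKO vs control, with 3 of 3 negative and 3 at that threshold, and the summed level of all 4 in the list was 2.93 to 3.94 CPM in DKO, 0.802 to 1.89 CPM in MttpLKO and 1.34 to 8.25 CPM in control pools. Other lists also had a single sign. In MttpLKO vs control B and plasma genes (7 of 7, median 1.42) and stellate and fibroblast genes (8 of 8, 0.51) were all positive. So were cholangiocyte (5 of 5, 0.40), T and NK (3 of 3, 0.63) and proliferation genes (4 of 4, 0.94). In DKO vs MttpLKO B and plasma, stellate and fibroblast, and T and NK genes were all negative. Both endothelial lists and the neutrophil genes were all positive there. Over all genes the medians were -0.02 in DKO vs MttpLKO, -0.0019 in DKO vs control and 0.01 in MttpLKO vs control. The unadjusted threshold was passed by 9.1%, 11.2% and 6.97% of genes in that order. Of the 2 antisense genes 0 were called and 0 passed the unadjusted threshold.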

How the data were processed

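Polyadenylated liver RNA was sequenced from pools, per the labels' protocols. Each deposited table held whole-number counts per gene, not normalized, with CPM and RPKM computed by the authors, per the file headers; both were recomputed from counts and lengths to within 5.1e-11 CPM and 4.7e-11 RPKM, and no deposited CPM or RPKM value entered a test. The submitters' processing notes list STAR 2.0.4b, featureCounts 1.4.5 and Subread without saying what each did. Genome build, annotation and strand setting were not stated in these sources. A mouse symbol was found for 97.26% of the identifiers. Replicates did not agree within sampling noise (chi-square of 20.8 to 67.5 for each degree of freedom), so none was counted as a repeat of another.

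Genes were kept by filterByExpr (minimum count 10; 14741 genes) and libraries scaled by TMM in edgeR 4.0.16 (R 4.3.3). Genotypes were compared with the quasi-likelihood F test in 1 fit of 3 genotype means over 9 libraries, with Benjamini-Hochberg adjustment over all genes tested and a threshold of 0.05; the biological coefficient of variation was 18.3%. CPM and RPKM in the text are on TMM-scaled library sizes. An offset of 0.5 was added to CPM for the SD between pools and for the search for most correlated genes. The pairwise correlations and the Cebpb to Cebpa ratio used log2 CPM without an offset. The Cebpb to Cebpa ratio and the pairwise correlations were tested by exact permutation (SciPy 1.17.1). Of these tests, only the pairwise edgeR comparisons were checked on simulated counts.

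The 9 factors and the 18 gene lists were chosen with earlier results of these data known. Named from each list were up to 4 called genes, otherwise members with the smallest p in the joint test. For marker lists, single genes are given only where they bear on a factor, beside sums, medians and counts of some lists. One cholangiocyte marker of the planned list is not reported here. Each factor's 2 most correlated genes were named. Alternatives were DESeq2 1.42.0, limma-voom (limma 3.58.1), other scalings and filters, removal of the 20 most abundant genes, the 6 compared libraries alone, a replicate block and each library left out.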

Additional observations from a re-analysis of the deposited data

How the results depend on the processing

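No factor was called under any alternative tried, and the 486 refitted fold changes of the 9 factors all stayed on the same side of the threshold, with 34 changes of sign. The lowest adjusted p was 0.0963, for Prox1 in DKO vs control without DKO replicate 2 (edgeR). The count of all genes called moved more. In DKO vs MttpLKO, DKO vs control, MttpLKO vs control and the joint test it was 59, 49, 51 and 100 as reported, 180, 201, 171 and 337 with no filter on low counts, and 214, 255, 165 and 406 with DESeq2; with only the 6 libraries compared it was 34 in DKO vs MttpLKO and 78 in DKO vs control. Leaving out each library in turn gave 22 to 73, 15 to 100, 14 to 54 and 47 to 136. The difference in the log2 ratio of Cebpb to Cebpa then ran from -0.424 to 0.279 in DKO vs MttpLKO (0.021 without DKO replicate 1), from -0.162 to 0.283 in DKO vs control (-0.034 without control replicate 1) and from -0.167 to 0.514 in MttpLKO vs control; the cause of these changes was not tested. Onecut1 moved most, from -0.75 to 0.74, from -0.88 to 0.51 and from -1.22 to 0.88 on the log2 scale in those comparisons. The replicate numbers did not pair the samples: deviations of same-numbered libraries correlated at -0.244 to 0.0721. A replicate block gave 43, 40, 35 and 77 genes and 0 factors. The confidence intervals printed for the factors are not adjusted for the number of genes tested.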
